A study of Arabidopsis thaliana with 12 samples.

Results

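Electrical signals travel through plant leaves within seconds of damage, and current passed through a petiole imitates the depolarisation that such signals carry. In Arabidopsis, signals of this kind are known to start the synthesis of jasmonate, a lipid hormone made from membrane fatty acids. Jasmonate releases MYC transcription factors from their JAZ repressors, and the released factors raise defence genes together with the genes that make and inactivate the hormone. The response described here is that of leaf 8 to current, with 6 of the 12 arrays of the study. They were chosen by their labels, 3 of leaf 8 with current and 3 of leaf 8 without it.

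In the current group, 40 µA was passed for 10 s through the leaf 8 petiole, with the blade collected 1 h afterwards. In the no-current group, a platinum wire sat in the petiole of leaf 8 and no current was passed. The labels name the wire for the no-current leaves alone, and no leaf 8 without a wire was set beside them. The time between wiring and harvest of the no-current leaves is not given in the sources used here. All plants were wild-type accession Col-0, grown singly in soil for 5 weeks with 10 h of light a day. The other 6 arrays are from leaf 13, 3 taken 1 h after leaf 8 was wounded and 3 from unwounded plants. They are used below for the variance estimate, tests of a difference and counts of shared calls. Their levels and spread are also set beside those of leaf 8. The labels do not say whether replicates are separate plants or pools, so a p-value here reflects the spread among these arrays and no more, and that spread may be technical.

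The values are log2 RMA levels from the Affymetrix ATH1 array, on which a difference of 1 is a 2-fold change. Changes are current minus no current, with limma's standard error (SE), from 3 arrays in each group. A gene was called, and is said to have risen or fallen, when limma's Benjamini-Hochberg adjusted p over 13356 genes was below 0.05. The 3 measured leaf markers, the Rubisco activator RCA and the antenna genes LHCB4.1 and LHCB4.2, had mean levels at the top of all genes, the lowest at the 99.96th percentile. Arrays of a leaf 8 group correlated with r from 0.991 to 0.996, and a typical change had an SE of 0.113.

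Current was followed by more rises than falls, and the rises were larger. Limma called 529 of 13356 genes (3.96%), of which 318 rose (2.38%) and 211 fell (1.58%). Of these, 114 rose at least 2-fold (0.854%) and 21 fell at least 2-fold (0.157%), while the median change over all genes was -0.02. In the fit of all probe sets, those with no single gene name were raised in 4.4% and lowered in 2.34%. The count of named genes rests in part on single arrays. It was 266 without current replicate 2, 329 without no-current replicate 3 and 338 without no-current replicate 1. At an unadjusted p under 0.05, 833 genes were higher (6.24%) and 1058 were lower (7.92%) with current. The 3 current arrays all lay above the 3 no-current arrays for 980 genes (7.34%) and all below them for 1281 (9.59%). Without any difference, 3 against 3 arrays lie fully apart with probability 0.1 over both directions together. Lower levels may come from fewer cells of a type or from less RNA per cell, which cannot be told apart in whole leaf blades.

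**Figure D1:**
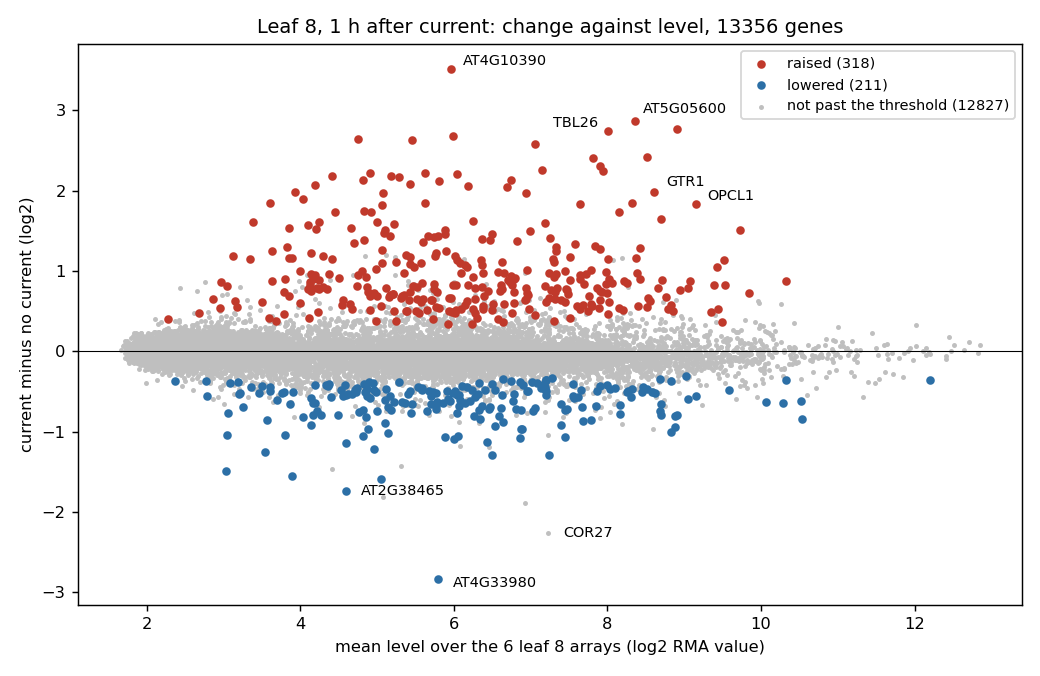
Change of each gene (current minus no current, log2) against its mean level over the 6 leaf 8 arrays (log2 RMA value), with 1 point per gene. The 318 raised genes (red) reach a change of 3.51 for AT4G10390, and the 211 lowered genes (blue) mostly lie close to the uncalled genes (grey), apart from AT4G33980 at -2.84; COR27, at -2.26, was not called.

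Of the 13 measured jasmonate genes 6 rose after current, most of them genes that modify or inactivate the hormone, and none fell. Over all genes 2.38% rose and 1.58% fell. Of the synthesis list 2 of 17 genes were measured and 1 rose. OPCL1, which couples a jasmonate precursor to coenzyme A in the peroxisome, was at 9.76, 10.56 and 9.87 in current replicates 1, 2 and 3, against 8.14, 8.33 and 8.22 in no-current replicates 1, 2 and 3. Every current array lay above every no-current array, with current replicate 2 highest, and the change was 1.83 (SE 0.19, limma adjusted p = 9.15e-05). DGL, a lipase of the first step, was at 2.95, 2.86 and 2.74 with current and at 2.49, 2.69 and 2.75 without it. These levels overlap near the lower end of the scale (change 0.20, SE 0.12).

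Of the 11 genes of the turnover list 5 were measured and 4 rose, with a median change of 1.89. AT5G05600, listed as the jasmonate oxidase JOX2, was at 9.63, 10.30 and 9.46 with current, against 6.81, 7.07 and 6.91 without it. The oxidases hydroxylate jasmonic acid and so inactivate it, and the groups were more than 2 log2 units apart (2.87, SE 0.24, limma adjusted p = 1.27e-05). AT2G38240, listed as JOX4, was at 6.26, 7.33 and 5.82 with current and at 4.08, 4.41 and 4.65 without it. JRG21, listed as JOX3, was at 4.35, 6.33 and 4.25 with current and at 2.75, 3.18 and 3.33 without it. In JRG21 current replicate 2 stood almost 2 log2 units above the other current arrays. Its change of 1.89 was no longer called without no-current replicate 1 (1.72, limma adjusted p = 0.0614), in a fit of the 6 leaf 8 arrays alone (limma adjusted p = 0.0911), and a robust trend ended the call too (limma adjusted p = 0.0760). JMT, the methyltransferase that makes methyl jasmonate, was at 5.59, 5.85 and 5.67 with current and 3.71, 4.28 and 3.88 without it (change 1.74, limma adjusted p = 1.86e-05). AT3G11180, listed as JOX1, was at 2.51 to 2.699 with current and at 2.36 to 2.44 without it. Its arrays did not overlap, yet the change of 0.20 was not called (limma adjusted p = 0.320).

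Among regulators, ORA47, an AP2/ERF factor that activates jasmonate synthesis genes, was at 5.49, 6.55 and 5.91 with current, against 4.01, 4.42 and 4.03 without it. It rose by 1.83 (SE 0.23, limma adjusted p = 4.29e-04) and was the 1 called gene of the 3 measured of 12 on the signalling list. MYC3 was at 6.14, 6.65 and 6.42 with current and at 6.11, 6.25 and 5.94 without it, and MYC4 had overlapping arrays too (change 0.07, SE 0.22, turning to -0.04 with array weights and to -0.22 without current replicate 3). No gene of the JAZ list, with 12 members, was measured among the named genes.

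Of 9 defence outputs 3 were measured and limma called 0 of them, 0 also being below an unadjusted p of 0.05. The defensins PDF1.2 and PDF1.2b, which jasmonate and ethylene raise together, had current arrays at 6.04, 5.81 and 5.61 for PDF1.2 and at 6.09, 6.17 and 6.05 for PDF1.2b. The no-current arrays were at 5.54, 4.49 and 4.94 for PDF1.2 and at 5.61, 5.02 and 5.72 for PDF1.2b. In both genes the current arrays lay above all no-current arrays, and the changes of 0.83 (SE 0.74) and 0.66 (SE 0.62) were not called in the fit across all 12 arrays. The thionin THI2.1 was at 3.08 ± 0.09 with current and at 3.09 ± 0.31 without it (SD, n = 3 arrays each).

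**Figure D2:**
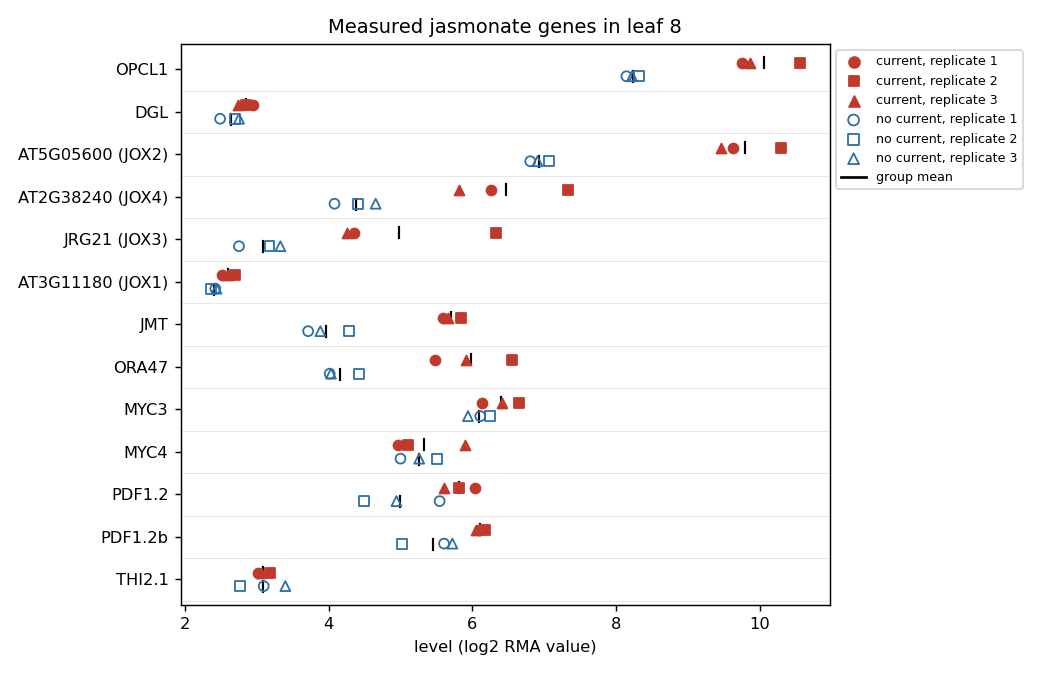
Level (log2 RMA value) of the 13 measured jasmonate genes in each leaf 8 array, with current (filled red) drawn above no current (open blue), a marker shape for each replicate number and a black tick for each group mean. In the 6 genes that rose, from OPCL1 to ORA47, every current array lies to the right of every no-current array and current replicate 2 (square) is the farthest right.

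The 20 largest rises, AT5G05600 among them, ran from 2.14 to 3.51 and kept their call in limma under each alternative that was run. The largest, AT4G10390, was at 7.20, 8.54 and 7.42 with current and at 4.31, 4.54 and 3.78 without it, an 11.4-fold difference (3.51, SE 0.28, limma adjusted p = 1.13e-05). TBL26, of a family that adds acetyl groups to wall polysaccharides, was at 9.08, 9.59 and 9.46 with current and at 6.08, 7.14 and 6.69 without it (2.74, SE 0.22, 6.69-fold). Here the no-current arrays were the more uneven group.

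AT2G34930 had the smallest p of the 20, at 8.25, 8.52 and 8.28 with current and 5.52, 5.95 and 5.84 without it (2.58, SE 0.15, limma adjusted p = 7.91e-07). 4CL8, a 4-coumarate:CoA ligase-like gene, was at 5.87, 6.52 and 5.67 with current and 3.48, 3.97 and 3.94 without it (2.22, SE 0.19). AT5G38130 was at 4.53, 6.27 and 5.72 with current, against 3.28, 3.39 and 3.32 without it (2.18, SE 0.31).

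GRX480, a glutaredoxin that binds TGA factors and is known from salicylic acid signalling, was at 7.32, 7.99 and 6.14 with current and 4.95, 5.04 and 4.83 without it (2.21, SE 0.33, limma adjusted p = 0.00151). It was 1 of 2 measured genes of 14 on the salicylic acid list, and the other, SAG101, was at -0.19 (SE 0.11). The rest of the 20 are known here by locus alone. They were AT3G51450 (2.77), AT5G56980 (2.68), AT1G61610 (2.64), AT2G22880 (2.63), AT5G54170 (2.41), AT2G42760 (2.41) and AT1G61890 (2.31). Smaller rises in this set were those of AT2G39420 (2.26), AT1G52720 (2.24), AT1G10585 (2.22), AT3G19970 (2.18), AT1G06620 (2.17) and AT4G24350 (2.14). In all 20 genes current replicate 2 was the highest current array.

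Glucosinolates are sulfur-rich defence compounds of the cabbage family, and 4 of the 5 measured genes of that list rose, of 21 listed, with a median change of 0.89. Over all genes 2.38% rose. GTR1, a transporter that loads glucosinolates into cells, was at 9.49, 10.07 and 9.25 with current and at 7.42, 7.82 and 7.63 without it. It rose by 1.98 (SE 0.21, limma adjusted p = 9.23e-05), or 3.94-fold. Its close relative GTR2 was at 8.09, 8.31 and 8.21 with current and at 7.20, 7.39 and 7.13 without it, a 1.95-fold rise. UGT74B1, which adds glucose to the glucosinolate core, was at 8.90, 9.34 and 9.22 with current and at 8.24, 8.36 and 8.19 without it (0.89, SE 0.13). The groups did not overlap in any of these 3 genes.

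NAI1, the regulator of the endoplasmic reticulum bodies that hold glucosinolate-splitting enzymes, was at 4.41, 5.16 and 4.27 with current and at 3.59, 3.88 and 4.01 without it (0.78, SE 0.19, limma adjusted p = 0.0287). Its call ended without no-current replicate 1 (0.67), without no-current replicate 2 (0.81) or without current replicate 2 (0.51), with limma adjusted p from 0.0606 to 0.133, and in the fit of the 6 leaf 8 arrays alone (limma adjusted p = 0.129). BCAT4, which starts the elongation of methionine side chains, was at 11.15 ± 0.12 with current and at 10.84 ± 0.18 without it (SD, n = 3 arrays each) and was not called (0.31, SE 0.17). APS3, named for ATP sulfurylase, the entry step of sulfate assimilation, was chosen after its value was seen and was at 8.05, 8.24 and 8.07 with current and 7.30, 7.39 and 7.13 without it (0.84, SE 0.14, limma adjusted p = 0.00247).

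Of the rapid stress factors 1 of 3 measured genes rose, of 28 listed, beside 2.38% of all genes. STZ, the zinc finger repressor also called ZAT10, was at 6.66, 7.64 and 7.23 with current and at 6.03, 6.13 and 6.05 without it. The no-current arrays were within 0.1 of each other while the current arrays spread over 1, and the change was 1.11 (SE 0.26, limma adjusted p = 0.0278). Its call ended without any 1 array other than current replicate 1 (0.87 to 1.14, limma adjusted p from 0.0612 to 0.153) and with a robust trend (limma adjusted p = 0.0833). The WRKY factors had small changes, WRKY53 of 0.12 (SE 0.15) and WRKY6 of 0.09 (SE 0.16), and WRKY6 turned to -0.0045 without current replicate 1.

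Of 8 measured touch and calcium genes, of 16 listed, 1 rose, beside 2.38% of all genes. CML38, a calmodulin-like calcium sensor, was at 4.88, 6.02 and 5.23 with current and at 4.56, 3.67 and 3.84 without it (1.35, SE 0.30, limma adjusted p = 0.0169). The call ended without no-current replicate 2 (1.18), no-current replicate 3 (1.26) or current replicate 2 (1.03), with limma adjusted p from 0.0713 to 0.0864. It also ended in the fit of the 6 leaf 8 arrays alone (limma adjusted p = 0.0602) and with a robust trend (limma adjusted p = 0.0595). The list had a median change of 0.09, and its other 7 members lay between -0.29 for CML42 and 0.64 for AT3G01830, listed as CML40.

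Several other genes with a symbol rose, and those given here were chosen after their values were seen. IRX15-L, which acts in xylan synthesis, was at 5.61, 6.50 and 5.54 with current and at 3.64, 3.95 and 3.67 without it (2.13, SE 0.20, limma adjusted p = 3.81e-05). TBL37 was at 6.64, 7.30 and 7.24 with current and at 5.96, 6.34 and 5.93 without it (0.98, SE 0.18). Of 22 measured TBL genes TBL26 and TBL37 were the 2 called, and the family's median change was -0.05. The TBL, SWEET and PUB families were picked from those with at least 2 called members, and 2.38% of all genes rose. GAUT15, of the galacturonosyltransferase family of pectin synthesis, was at 7.19, 7.78 and 7.39 with current and at 6.55, 6.39 and 6.39 without it (1.01, SE 0.14).

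Sugar carriers of the vacuole membrane moved in both directions. SWEET16 was at 5.16, 5.82 and 4.93 with current and at 4.25, 4.15 and 4.52 without it (1.00, SE 0.18, limma adjusted p = 0.00531). SWEET17 was at 7.81, 8.08 and 8.13 with current and at 7.42, 7.64 and 7.44 without it (0.51, SE 0.11, limma adjusted p = 0.0218). The 2 were the called members of 14 measured SWEET genes, whose median change was 0.07. The call of SWEET17 ended without no-current replicate 1, no-current replicate 3, current replicate 2 or current replicate 3 (0.44 to 0.48, limma adjusted p from 0.0757 to 0.107) and in the fit of the 6 leaf 8 arrays alone. TMT1, which pumps glucose into the vacuole, was at 6.71, 6.42 and 6.42 with current and at 7.30, 7.12 and 7.29 without it (-0.72, SE 0.10, limma adjusted p = 9.73e-04).

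The U-box ubiquitin ligases PUB19 and PUB43 were the 2 called of 9 measured PUB genes, whose median change was 0.38. PUB43 was at 6.31, 7.10 and 6.62 with current and at 5.66, 5.55 and 5.61 without it (1.07, SE 0.16). PUB19 was at 8.18, 9.43 and 9.43 with current and at 6.43, 8.06 and 7.34 without it, so that the lowest current array was close to the highest no-current array. Its change of 1.74 was not called without no-current replicate 1, no-current replicate 3, current replicate 2 or current replicate 3 (1.31 to 1.77, limma adjusted p from 0.0760 to 0.132). A robust trend and the fit of the 6 leaf 8 arrays alone ended its call as well (limma adjusted p from 0.0878 to 0.142).

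IAA18, an Aux/IAA repressor of auxin response, was at 7.83, 8.25 and 7.84 with current and at 6.74, 6.49 and 6.79 without it, a 2.46-fold rise. MSRB6, a methionine sulfoxide reductase, was at 8.45, 9.31 and 7.92 with current and at 6.99, 6.28 and 6.91 without it (1.83, SE 0.27). UGT78D1, which attaches rhamnose to flavonols, was at 6.12, 6.24 and 6.13 with current and at 5.36, 5.59 and 5.02 without it (0.84, SE 0.13). In these 3 genes the groups did not overlap. SNZ, an AP2-type repressor of flowering, HOS3-1, a fatty acid elongase homologue, and SRC2, a C2-domain protein named for cold induction in soybean, rose by 0.78, 1.25 and 1.05.

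The falls were smaller and depended more on single arrays. Of the 15 largest, 8 kept their call in limma under each alternative that was run and 10 kept it without any 1 array. The largest was AT4G33980, listed as COR28 and described with the cold and evening genes below. AT2G38465 was at 4.68, 3.33 and 3.16 with current, against 5.74, 5.19 and 5.43 without it (-1.73, SE 0.28, 3.32-fold lower). AT3G15630 was at 4.25 ± 0.503 with current and at 5.84 ± 0.307 without it (SD, n = 3 arrays each; -1.59, SE 0.25, limma adjusted p = 0.00179). In both, current replicate 1 lay more than 0.8 above the other current arrays.

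AT2G23910 had the smallest p among the falls, at 2.66, 2.07 and 2.15 with current and 3.77, 3.85 and 3.72 without it (-1.48, SE 0.14, limma adjusted p = 3.12e-05), all near the lower end of the scale. FMO, a flavin monooxygenase gene, was at 4.58, 4.17 and 4.31 with current and at 5.18, 5.59 and 5.93 without it (-1.21, SE 0.21, limma adjusted p = 0.00384). AT5G11070 (-1.29), AT3G62950 (-1.09), AT3G45160 (-1.08) and AT4G27900 (-1.06) fell as well. AT3G28310 (-1.55) and AT1G53035 (-1.29) lost their call only in the fit of the 6 leaf 8 arrays (limma adjusted p = 0.0713 and 0.0691).

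The remaining 4 of the 15 lost it without single arrays. AT4G12490 (-1.25) was not called without current replicate 2 (-1.14, limma adjusted p = 0.0563), and AT1G78170 (-1.13) was not without no-current replicate 1 (-1.04) or current replicate 2 (-0.87), with limma adjusted p of 0.0597 and 0.0599. AT5G25210 (-1.15) was not called without no-current replicate 1, no-current replicate 3, current replicate 2 or current replicate 3 (-1.19 to -0.77, limma adjusted p from 0.0960 to 0.173). AT5G44680 (-1.06) was not without no-current replicate 1, no-current replicate 3 or current replicate 2 (-0.96 to -0.82, limma adjusted p from 0.128 to 0.168). The fit of the 6 leaf 8 arrays alone called none of AT4G12490, AT1G78170, AT5G25210 and AT5G44680 (limma adjusted p from 0.0687 to 0.138), and a robust trend neither AT5G25210 nor AT5G44680 (limma adjusted p = 0.104 and 0.109).

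**Figure D3:**
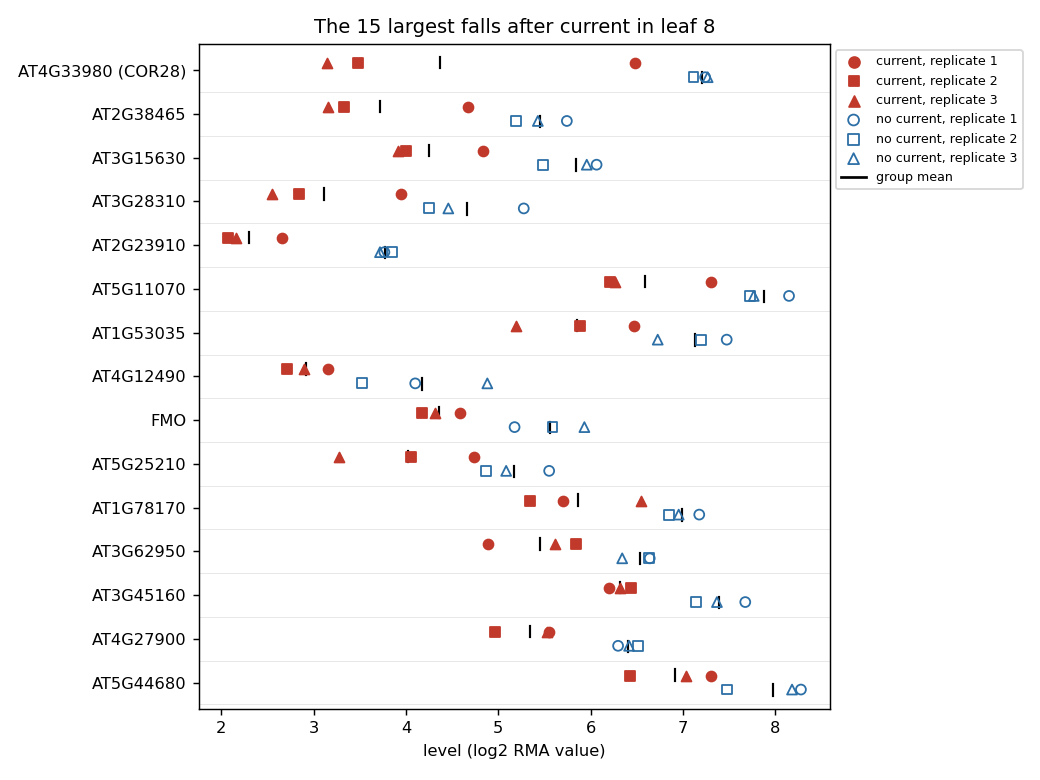
Level (log2 RMA value) of the 15 genes with the largest falls in each leaf 8 array, with current (filled red) drawn above no current (open blue), a marker shape for each replicate number and a black tick for each group mean. The groups do not overlap, by the rule that chose the genes, and current replicate 1 (circle) is the highest current array in 12 of the 15.

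Genes of starch breakdown and of the cytoskeleton were among the falls with a symbol. They were chosen, and the lists they belong to drawn up, after their values were seen. PWD (AT5G26570), the phosphoglucan water dikinase that opens starch granules to amylases, was at 9.04, 8.37 and 7.80 with current, against 9.39, 9.26 and 9.39 without it. It fell by 0.94 (SE 0.21, limma adjusted p = 0.0170), with no-current arrays within 0.14 of each other and current arrays spread over 1.24. DPE1, the plastid enzyme that recycles short glucans, was at 7.49, 7.10 and 6.76 with current and at 8.05, 7.64 and 7.81 without it (-0.72, SE 0.15, limma adjusted p = 0.0140). In both genes current replicate 1 was nearest the no-current arrays and current replicate 3 farthest from them.

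PWD and DPE1 were the 2 measured of 15 starch breakdown genes, and 1.58% of all genes fell. The call of PWD (AT5G26570) ended without no-current replicate 1, no-current replicate 3 or current replicate 2, at limma adjusted p from 0.0645 to 0.0693, and that of DPE1 ended when either no-current replicate 1 or current replicate 2 was left out, at limma adjusted p of 0.0740 and 0.0595. Both ended in the fit of the 6 leaf 8 arrays alone. QQS, a gene restricted to Arabidopsis that is known to lower leaf starch, was at 5.35, 5.50 and 5.73 with current and at 6.48, 6.06 and 7.21 without it (-1.06, SE 0.25, limma adjusted p = 0.0256). Its call ended without any 1 array other than no-current replicate 2 or current replicate 3 (-1.11 to -0.74, limma adjusted p from 0.0625 to 0.0989). The fit of the 6 leaf 8 arrays and a robust trend ended it too (limma adjusted p = 0.0762 and 0.0619).

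All 5 measured beta-tubulin genes, of 9, had changes below 0, from -0.67 to -0.20 with a median of -0.42, and 2 fell. Over all genes 1.58% fell and the median change was -0.02, and this list too was drawn up after its values were seen. TUB5 was at 8.66, 8.35 and 8.11 with current and at 9.25, 8.75 and 9.07 without it (-0.66, SE 0.14, limma adjusted p = 0.0150). TUB9 was at 8.35, 7.67 and 7.48 with current and at 8.46, 8.52 and 8.52 without it (-0.67, SE 0.16, limma adjusted p = 0.0303). TUB1, TUB6 and TUB7 were at -0.42, -0.26 and -0.20 and were not called. The call of TUB5 ended without no-current replicate 1, no-current replicate 3, current replicate 2 or current replicate 3, with limma adjusted p from 0.0554 to 0.0776. That of TUB9 ended without any 1 array other than current replicate 1 (limma adjusted p from 0.0757 to 0.152). In the fit of the 6 leaf 8 arrays alone neither TUB5 nor TUB9 was called (limma adjusted p = 0.0961 and 0.155).

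Of 6 measured serine carboxypeptidase-like genes 3 fell, and the family's median change was -0.44. The family was picked for its called members, and 1.58% of all genes fell. SCPL49 was at 7.74, 7.09 and 6.91 with current, and its no-current arrays were all at 8.11 (-0.87, SE 0.16, limma adjusted p = 0.00542). It was not called in the fit of the 6 leaf 8 arrays alone (limma adjusted p = 0.0550). SCPL45 (-0.56) and SCPL34 (-0.61) were called in limma with adjusted p of 0.0179 and 0.0309. The call of SCPL45 ended without no-current replicate 1, no-current replicate 2 or current replicate 3, at limma adjusted p from 0.0509 to 0.0662, and that of SCPL34 without no-current replicate 1, no-current replicate 3, current replicate 2 or current replicate 3, with limma adjusted p from 0.0863 to 0.133. In the fit of the 6 leaf 8 arrays alone neither SCPL45 nor SCPL34 was called (limma adjusted p = 0.0896 and 0.138).

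Other falls were those of MOL1, a receptor-like kinase that restrains the cambium, and CRR42, which helps assemble the chloroplast NDH complex. MOL1 was at 4.33, 4.05 and 3.91 with current and at 5.15, 4.80 and 4.72 without it (-0.79, SE 0.14, limma adjusted p = 0.00407). CRR42 was at 7.33, 7.20 and 7.28 with current and at 7.68, 7.92 and 7.87 without it (-0.55, SE 0.09, limma adjusted p = 0.00216). The groups did not overlap in either gene. The expansin-like gene EXLB1 (-0.62) and the glutathione transferase GSTU27 (-0.72) fell too, and both lost their call when current replicate 2 was left out, at limma adjusted p of 0.0563 and 0.0650, and in the fit of the 6 leaf 8 arrays alone (limma adjusted p = 0.0554 and 0.0550). ATG8E, which coats autophagosomes, was at -0.65 and was not called without no-current replicate 2, no-current replicate 3 or current replicate 2, at limma adjusted p from 0.0810 to 0.158.

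Among the cold-regulated and evening genes, COR27 and AT4G33980 had levels that differed widely among the current arrays, and AT4G33980 fell. COR27 and AT4G33980, listed as COR28, are cold-induced partners that repress evening genes of the circadian clock, and both stand on the cold and the evening list. COR27 was at 8.23, 5.99 and 4.07 in current replicates 1, 2 and 3, against 8.47, 8.35 and 8.24 without current. Current replicate 1 lay next to the no-current arrays and current replicate 3 about 4 log2 units below them. The range was 4.16 among the current arrays and 0.23 among the no-current arrays, and it was 0.41 and 0.21 among the wounded and unwounded leaf 13 arrays. The change of -2.26 (SE 0.64) was not called (limma adjusted p = 0.0699). COR27 was called without current replicate 1 (-3.32, limma adjusted p = 1.04e-04) and with array weights (limma adjusted p = 0.0137), and was at -1.24 without current replicate 3.

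AT4G33980 was at 6.48, 3.48 and 3.15 with current and at 7.24, 7.11 and 7.27 without it. It fell by 2.84 (SE 0.57, limma adjusted p = 0.0102), or 7.15-fold, and current replicate 1 again stood far above the other current arrays while remaining below every no-current array. The call ended without current replicate 2 (-2.39, limma adjusted p = 0.0605), in the fit of the 6 leaf 8 arrays alone (limma adjusted p = 0.0930) and with a robust trend (limma adjusted p = 0.0844). GI, a clock and photoperiod protein and the other measured evening gene, was at 8.16, 7.75 and 7.52 with current and at 8.73, 8.18 and 8.37 without it. Its arrays did not overlap but lay close, and the change of -0.62 (SE 0.17) was not called (limma adjusted p = 0.0549). GI was called without current replicate 1 (-0.79, limma adjusted p = 0.00910) or without no-current replicate 2 (-0.74, limma adjusted p = 0.0359). It was also called with array weights, with a robust trend and without the dimmest genes (limma adjusted p from 0.0347 to 0.0487).

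The other cold genes differed by less. COR15A, which protects chloroplast membranes during freezing, was at 11.88, 11.77 and 11.41 with current and at 12.06, 11.99 and 11.97 without it. COR15B was at 11.38, 11.15 and 10.58 with current and at 11.76, 11.58 and 11.48 without it. The dehydrin COR47 was at 11.31, 11.26 and 11.05 with current and at 11.61, 11.54 and 11.61 without it. In these 3 genes every current array lay below every no-current array, and the changes of -0.32 (SE 0.11), -0.57 (SE 0.17) and -0.38 (SE 0.10) were not called. Without current replicate 1, COR15B (-0.74, limma adjusted p = 0.0163) and COR47 (-0.43, limma adjusted p = 0.0469) were. COR47 was called with a robust trend and without the dimmest 50% of genes too (limma adjusted p = 0.0326 and 0.0429). The dehydrin LTI30 stood apart, at 8.58, 8.63 and 7.76 with current and 8.16, 7.83 and 8.17 without it, with overlapping groups (0.27, SE 0.20).

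In all, 1 of the 6 measured cold genes (of 28) and 1 of the 3 measured evening genes (of 16) fell, the same gene, and none rose. At an unadjusted p under 0.05, 5 cold and 3 evening genes were lower, COR27 and AT4G33980 being counted in both, beside 7.92% of all genes. The median change was -0.47 for the cold list and -2.26 for the evening list, against -0.02 over all genes. With 3 evening genes measured, the evening median is the uncalled change of COR27 itself, and GI was at -0.62. Without current replicate 3 the medians were -0.32 and -1.24, and without current replicate 1 they were -0.58 and -3.32. Both evening values are again those of COR27. Over the 7 genes of both lists together, current replicate 1 was the highest current array in 6, the exception being LTI30, and current replicate 3 was the lowest in all 7. Among the 211 genes that fell, current replicate 1 was the highest in 55.0% and current replicate 3 the lowest in 36.5%. Such ranks were not counted over all genes. Set against the no-current mean, the median of the 7 cold and evening genes was -0.23 in current replicate 1, -0.45 in current replicate 2 and -0.91 in current replicate 3. The median range was 0.799 over the current arrays. Ranges over these arrays were 4.16 for COR27 and 3.34 for AT4G33980, and from 0.25 for COR47 to 0.88 for LTI30 otherwise. Over the no-current arrays they ran from 0.08 for COR47 to 0.55 for GI. The range of GI with current was 0.64.

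Morning genes lay on the other side. AT1G69570, listed as CDF5, a Dof factor of the photoperiod pathway, was at 6.08, 6.12 and 6.26 with current and at 5.49, 5.52 and 5.24 without it (0.74, SE 0.11, limma adjusted p = 0.00179). The current arrays were close to each other and all above the no-current arrays. AT5G52660, listed as the MYB-like factor RVE6, was at 6.53, 7.05 and 6.98 with current and at 6.45, 6.49 and 6.48 without it. It was not called (0.38, SE 0.13), but was without current replicate 1 (0.55, limma adjusted p = 0.0104). These were the 2 measured of 18 morning genes.

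The same unevenness was searched for across all genes. A gene counted as uneven when its no-current range was at most 1 part in 3 of its current range and its lowest current array lay below all no-current arrays. Of 13356 genes, 1434 met this rule. The 12 with the widest current range are given as a description, since the range chose them, and COR27 and AT4G33980 have a p above only as members of the cold and evening lists. They were led by COR27, AT4G33980 and AT1G07050. AT1G07050 was at 7.54, 6.11 and 4.30 with current and at 8.08, 7.88 and 7.65 without it, the same order of arrays as COR27. AT1G17665 was at 5.22, 3.07 and 2.74 with current and at 5.34, 4.94 and 5.15 without it, so that its current replicate 1 lay among the no-current arrays. AT5G50450, AT2G21130 and AT1G19960 had the same order, with AT5G50450 at 6.82, 5.92 and 4.88 with current and at 6.50, 6.32 and 6.60 without it.

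Not all of the 12 followed that order. AT1G47400 was at 5.08, 7.30 and 5.21 with current and at 6.96, 7.23 and 6.96 without it, with current replicate 2 alone at the no-current level. WSD1, a wax ester synthase, was at 7.51, 6.92 and 8.81 with current and at 8.06, 8.39 and 8.08 without it, with current replicate 3 highest. AT3G01830 and AT3G15310 had current replicate 1 lowest, with another current array above the no-current arrays in each. AT5G03350 did follow the order of COR27, but with at least 1 current array above the no-current arrays. Current replicate 1 was the highest in 8 of the 12 and current replicate 3 the lowest in 8. The medians against the no-current mean were -0.11, -0.71 and -1.68 in current replicates 1, 2 and 3. Over all 1434 uneven genes, current replicate 1 was the highest in 50.2% and current replicate 3 the lowest in 42.6%. Their medians were -0.01, -0.10 and -0.10 in the same order, so the graded order of the 12 was not that of the whole set.

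**Figure D4:**
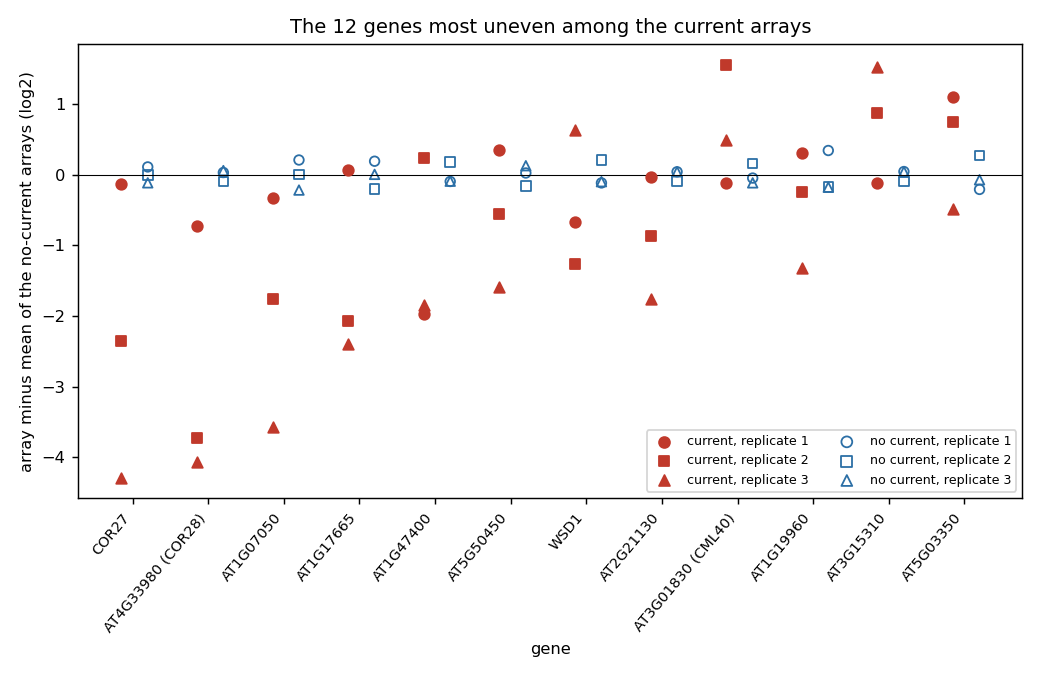
Each leaf 8 array minus the mean of the 3 no-current arrays (log2) for the 12 genes with the widest range among the current arrays, with current (filled red) left of no current (open blue) and a marker shape for each replicate number. For COR27, AT4G33980 and AT1G07050 current replicate 1 (circle) lies between -0.72 and -0.13, while current replicate 3 (triangle) lies between -4.29 and -3.57.

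In the no-current leaves COR27, AT4G33980 and AT1G07050 stood 5.74, 4.95 and 5.14 above their level in unwounded leaf 13, and GI, COR15A, COR15B and COR47 stood 1.22 to 2.55 above it. The median of this difference was 1.98 over the 12 widest genes, and -0.03 over all 1434 uneven genes, beside -0.02 over all genes. The choice of the 12 by a wide current range that reaches below the no-current arrays can favour a high value. Leaf position, wire and experiment differ together in that contrast and cannot be told apart. The current arrays of COR27 at 5.99 and 4.07 therefore lay between the no-current mean of 8.35 and the unwounded leaf 13 mean of 2.61.

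The widest gap between 2 arrays of a group was among the current arrays. Between current replicates 1 and 3, 120 genes were more than 2-fold apart, with 59 between replicates 1 and 2 and 70 between replicates 2 and 3. The same counts ran from 26 to 67 within the no-current group, from 20 to 41 within the wounded group and from 4 to 12 within the unwounded group. For 168 genes the current range was at least 1 and the no-current range under 1, against 79 genes the other way round.

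The arrays did not rank alike for rises and for the cold and evening genes. Among the 114 genes raised at least 2-fold, current replicate 2 was highest in 105, and the medians above the no-current mean were 1.16, 2.00 and 1.31 in current replicates 1, 2 and 3. Current replicate 1 was the lowest of the 3 in 73 of them and current replicate 3 in 41. Among the 21 genes lowered at least 2-fold, current replicate 1 was highest, and so nearest the no-current level, in 16, and the medians were -0.86, -1.39 and -1.25. Current replicate 3, in which COR27 was lowest, thus had smaller rises of most raised genes than current replicate 2. What sets the arrays apart was not tested, since the labels give no more than a replicate number.

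**Figure D5:**
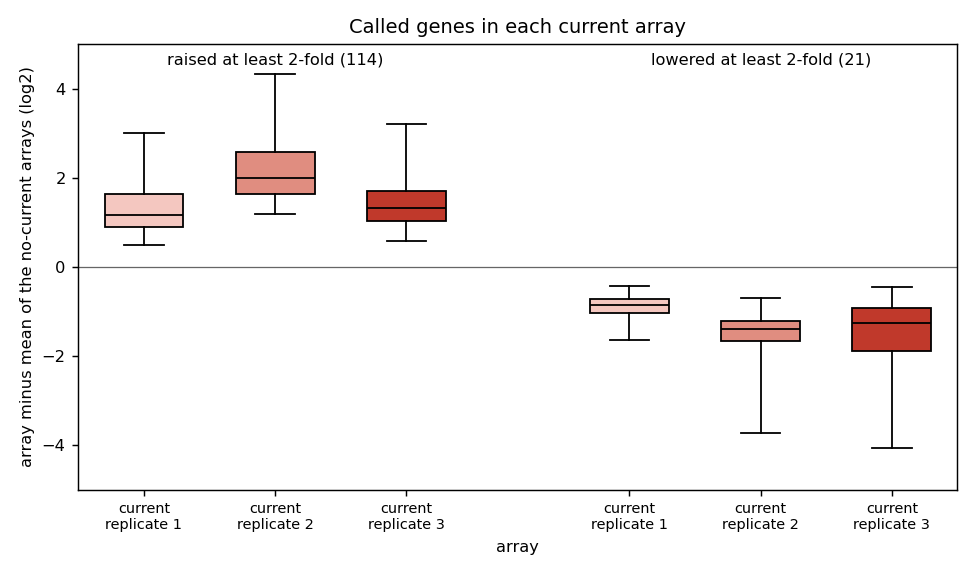
Each current array minus the mean of the 3 no-current arrays (log2) over the 114 genes raised at least 2-fold (left) and the 21 lowered at least 2-fold (right), with boxes from the lower to the upper quartile, a line at the median and whiskers to the lowest and highest gene. The medians of the raised genes are 1.16, 2.00 and 1.31 in current replicates 1, 2 and 3, and those of the lowered genes -0.86, -1.39 and -1.25.

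Several groups had no call. Among 6 measured electrical signalling genes, of 25, limma called 0, and 1 was higher and 2 were lower at an unadjusted p below 0.05, which 6.24% and 7.92% of all genes were. GLR3.3, a channel of the glutamate receptor-like family that carries wound signals between leaves, was at 5.88, 6.36 and 6.30 with current and at 5.60, 5.75 and 5.91 without it. Its lowest current array lay below its highest no-current array, and it was called only without current replicate 1 (0.58, limma adjusted p = 0.0200). GLR3.6, which acts with it, was at 5.23, 4.74 and 5.21 with current and at 5.39, 5.31 and 5.40 without it (-0.31, SE 0.14).

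The 3 measured heat shock genes, of 15, changed by -0.12 to -0.09, and limma called 0 of them, 0 of them also being below an unadjusted p of 0.05. Among 4 auxin response genes, of 11, limma called 0. At an unadjusted p below 0.05, 1 was lower, beside 7.92% of all genes. WES1, listed as the auxin-conjugating enzyme GH3.5, was at 3.42, 3.46 and 3.64 with current and at 5.11, 3.65 and 4.21 without it, and was called without no-current replicate 2 (-1.15, limma adjusted p = 0.00740). Among 5 wall-loosening genes, of 9, limma called 0. Here too 1 was lower at an unadjusted p below 0.05, beside 7.92% of all genes. The expansin EXPA8 was at 6.37, 6.23 and 7.49 with current and at 8.37, 7.30 and 7.55 without it, and was called without current replicate 3 (-1.44, limma adjusted p = 0.0126). The ethylene regulator EIN3 and the 3 photosynthesis genes were at -0.02 to 0.08, and no gene of the abscisic acid list was measured.

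No marker of a single cell type was called. Of 25 marker genes 5 were measured, and limma called 0 of them. Of these 5, 1 was higher at an unadjusted p below 0.05, beside 6.24% of all genes. That 1 was the trichome regulator TRY, at 5.03, 5.49 and 5.94 with current and 4.39, 5.24 and 4.79 without it. The 2 guard cell markers averaged 5.26 to 5.30 over the current arrays and 5.12 to 5.64 over the no-current arrays. SWEET11 of the phloem ranged from 8.91 to 9.46 with current and from 8.97 to 9.49 without it, and the senescence marker SAG29 from 3.66 to 4.18 with current and from 3.83 to 4.02 without it. No marker of dividing or epidermal cells was measured.

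The response to current was set against that of leaf 13 to wounding of leaf 8, an experiment with no arrays in common. Both tests use the same variance estimate of each gene. Of the 318 genes raised by current 284 also rose after wounding, which is 89.3% of the genes raised by current and 36.6% of the 776 raised by wounding (5.81% of all genes), and 1 fell. Of the 211 genes lowered by current 117 also fell after wounding, which is 55.5% of the genes lowered by current and 10.4% of the 1124 lowered by wounding (8.42%), and none rose. The difference of the responses itself passed in limma for 381 genes (2.85%). Among the genes raised by current it passed for 100, with the change smaller after current in 92 and larger in 8, and among those lowered by current for 22. Leaf and experiment differ with the stimulus and cannot be told apart from it.

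Most named genes with such a difference rose less after current. For AT5G05600 the change was 2.87 after current and 5.80 after wounding (difference -2.93, SE 0.34, limma adjusted p = 6.02e-04), and for OPCL1 it was 1.83 after current and 3.64 after wounding. Of the 6 cold genes 4 rose after wounding, COR15A, COR15B, COR47 and LTI30, and none of these was called after current. COR15A, COR15B and COR47 were at -0.32 to -0.57 after current and rose by 0.64 to 0.88 after wounding (differences from -1.22 to -1.20). LTI30 was at 0.27 after current and rose by 2.18 after wounding (difference -1.91). COR27 and AT4G33980, at 0.40 and 0.09 after wounding, were not called there.

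A few rose after current and had no call after wounding, and the difference passed. PRN, a pirin, was at 4.61, 4.59 and 4.48 with current and at 3.76, 3.55 and 3.80 without it, a rise of 0.86 against 0.21 after wounding (difference 0.65, limma adjusted p = 0.0419). RALFL22, a small signalling peptide, was at 7.26, 7.42 and 7.27 with current and at 7.07, 6.36 and 6.42 without it, a rise of 0.70 against -0.25 after wounding (difference 0.95, limma adjusted p = 0.0316). TINY2, a DREB-type factor, was at 6.19, 6.27 and 6.43 with current and at 5.33, 5.96 and 5.59 without it, a rise of 0.67 against -0.18 after wounding (difference 0.85, limma adjusted p = 0.0411). These 3 were chosen after their values were seen. Of the 10 alternatives run for it, the difference lost its call in 9 for PRN, 6 for TINY2 and 4 for RALFL22. The rise of RALFL22 was not called without no-current replicate 2, no-current replicate 3 or current replicate 2, at limma adjusted p from 0.0836 to 0.0984, and that of TINY2 without no-current replicate 1, no-current replicate 3, current replicate 2 or current replicate 3, at limma adjusted p from 0.0587 to 0.0817. In the fit of the 6 leaf 8 arrays alone neither RALFL22 nor TINY2 was called (limma adjusted p = 0.0943 and 0.0713).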

How the data were processed

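Transcripts of the leaf 8 blade were measured on Affymetrix ATH1 arrays, 3 with current and 3 without, from 300 ng of total RNA per the labels' protocols. The deposited log2 values are RMA levels, and the submitters' processing notes name Affymetrix Power Tools, without a version, as the tool of the authors. The log base is taken from the method and from the range of 1.46 to 13.3. RMA equalises the distribution of intensities between arrays, so a change shared by most genes is removed, and it compresses folds near background.

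Of 22810 probe sets, 13513 had 1 gene in the platform table, 503 had several, 8730 were not named there and 64 were controls. Probe sets with 1 gene were averaged per gene, giving 13356 genes, of which 13286 matched the reference annotation TAIR10.1, the source of the symbols. Named coverage is uneven, with 14.6% of reference genes that carry a symbol tested against 63.1% of those known by locus alone. No filter, pseudocount or further normalization was used.

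Tests used limma 3.58.1 under R 4.3.3, with 1 mean per group over all 12 arrays, moderated variances (8 residual and 6.31 prior degrees of freedom), two-sided tests and Benjamini-Hochberg adjustment. Arrays have no counted depth, so their number limits the precision. An exact permutation of 3 against 3 arrays cannot give a p below 0.1, so none was used. On simulated data with the spread of these arrays, limma recovered 95 of 100 genes changed by 1 on the log2 scale. It recovered 100 of 100 changed by 2 and made 12 false calls among 13356 genes. In the real data, 266 genes were called without current replicate 2 and 728 without current replicate 1. Whether the recovery and the false calls hold for the real arrays was not tested.

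The text names, of the called genes whose groups did not overlap, the 20 that rose most and the 15 that fell most. To these were added the measured jasmonate, cold, evening and morning genes, the called and up to 3 other members of each other list, and the 12 most uneven genes, of which 6 also had a current array above all no-current arrays. The members and lists were chosen with earlier results of these data known. Alternatives were quantile normalization, median centring, array weights, a robust trend, filters on the dimmest 25% and 50% of genes, the brightest probe set of each gene and all probe sets. A fit of the 6 leaf 8 arrays alone, a replicate block and leaving out each array in turn were also run. Same-numbered current and no-current arrays deviated from their group means with correlations of -0.02, 0.04 and -0.07. Arrays of unlike number had correlations from -0.105 to 0.136. The check thus shows no sign of pairing by number, and with values all this small it cannot exclude it.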

Additional observations from a re-analysis of the deposited data

Results flagged for a closer look

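The change after current in leaf 8 differed from the change after wounding in leaf 13, in limma's test of the difference itself, for 35 of the genes named above. Each value below is the current response minus the wound response on the log2 scale. Levels in no-current leaf 8 could differ from those in unwounded leaf 13, by 2.74 for AT5G05600, 2.25 for STZ and -0.03 for JMT. Leaf and experiment differ with the stimulus and cannot be told apart from it.

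In 21 of the 35 genes the level rose after both stimuli and less after current. They were AT4G10390 (-1.84), AT5G05600 (-2.93), AT3G51450 (-2.00), AT5G56980 (-2.10), AT2G34930 (-1.17), AT5G54170 (-1.34), AT1G61890 (-2.12), AT1G52720 (-1.54), 4CL8 (-2.31), AT1G06620 (-1.76), OPCL1 (-1.81), AT2G38240 (-3.00), JMT (-1.39), ORA47 (-1.52), STZ (-2.72), CML38 (-1.75), NAI1 (-2.10), TBL37 (-1.06), IRX15-L (-1.66), SWEET16 (-1.06) and PUB43 (-1.88). A lower response to current, or no call beside a rise after wounding, or a fall beside no call, gave the negative difference of AT2G38465 (-1.65), AT2G23910 (-1.32), COR15A (-1.20), COR15B (-1.21), COR47 (-1.22), LTI30 (-1.91), AT1G76640 (-2.33), AT1G07050 (-3.55) and SCPL49 (-0.91). AT1G07050 was chosen for its low current arrays, so its difference is a description and not a test. Of these, COR15A, COR15B, COR47, LTI30, AT1G76640 and AT1G07050 rose after wounding and were not called after current, while AT2G38465, AT2G23910 and SCPL49 fell after current and were not called after wounding.

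The difference was above 0 in IAA29 (2.11), PRN (0.65), TINY2 (0.85), RALFL22 (0.95) and GSTU27 (0.89). IAA29 and GSTU27 were lower by more after wounding than after current, and PRN, TINY2 and RALFL22 rose after current and had no call after wounding. Of the 35 differences 19 kept their call in each of the 10 alternatives that were run, and PRN lost it in 9 of them, AT5G54170 in 7, and CML38, SWEET16 and TINY2 in 6.

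Probe sets with no single gene name lie outside the comparisons above. In the fit of all probe sets, limma called 622 of the 9233 probe sets of this kind, of which 406 were raised (4.4%) and 216 were lowered (2.34%) with current.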

How the results depend on the processing

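All counts here come from limma. Without 1 leaf 8 array in turn, called genes numbered 266 to 728 (529 with all arrays), raised 187 to 404 (318), lowered 79 to 324 (211), raised at least 2-fold 82 to 153 (114), lowered at least 2-fold 12 to 45 (21) and genes whose groups did not overlap 3230 to 4055 (2261). Smaller groups overlap less often by construction, so the last count is expected to rise when an array is left out. The 6 leaf 8 arrays alone gave 291 called, 210 raised, 81 lowered and 12 lowered at least 2-fold. Array weights gave 331 lowered. Without the dimmest 50% of genes 1492 did not overlap. All probe sets, more features by construction, gave 1185 called, 740 raised, 445 lowered, 302 raised and 50 lowered at least 2-fold, and 4191 not overlapping. The replicate block, on numbers not known to pair the arrays, gave 333 called and 99 lowered. Among named genes it ended the calls of CML38, CRR42, EXLB1, GSTU27, NAI1, PWD, RALFL22, SCPL34, SCPL45, SWEET16, SWEET17, TINY2, TUB5 and TUB9 (limma adjusted p from 0.0514 to 0.133), and brought PDF1.2 and GI past the threshold (limma adjusted p = 0.0487 and 0.0459). Quantile normalization and median centring moved no count of calls by over 1.5 times. Without 1 array the median current range of the cold and evening genes was 0.226 to 0.799, a range over 2 arrays where a current array is left out, and 22 to 43 named genes differed between the responses (35 with all arrays).

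Genes that changed direction were all uncalled, and the cause was not tested. With array weights MYC4 was at -0.0363, THI2.1 at 0.0367 and LHCB4.1 at -0.00276. With median centring THI2.1 was at 0.0109. With quantile normalization EIN3 was at 0.00412, RCA at -0.00989 and LHCB4.2 at -0.0217. Without 1 array MYC4 ranged from -0.22 to 0.24, THI2.1 from -0.161 to 0.151, WRKY6 from -0.0045 to 0.231, AT5G48570 from -0.426 to 0.117, EIN3 from -0.104 to 0.0529, LHCB4.1 from -0.00717 to 0.0438, LHCB4.2 from -0.0483 to 0.0719 and AT1G19960 from -0.781 to 0.0378. Signal near background limits DGL, JOX1 and other genes with levels below 3.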
